A study of Homo sapiens with 8 samples.

Results

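Divergent transcripts are long non-coding RNAs (lncRNAs) that start next to a named gene and run away from it on the opposite strand. They were taken here as the lncRNA rows of the deposited table whose gene name ends in -DT. This gave 267 divergent transcripts among 16525 listed genes, against 2152 other lncRNAs and 13401 protein-coding genes. For 264 of them the gene named before -DT, called the partner below, was also listed, and all 264 partners were protein-coding. C2orf74-DT, ARHGAP11B-DT and FAM151B-DT had no listed partner.

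The RNA came from EndoC-βH5, a human pancreatic beta-cell line, and was made into strand-specific mRNA libraries. The 4 control libraries were from untreated cells, and the 4 cytokine libraries were from cells exposed to interleukin-1β (IL-1β), interferon-γ (IFN-γ) and tumour necrosis factor α (TNFα) together for 48 h. EndoC-βH5 is a single established line, so the libraries are repeat samples of that line. The columns are called A to D after the first part of their names, which each control column shares with a cytokine column. Levels are the deposited CPM values, read counts scaled to each library's total. A gene is called changed where limma on log2(CPM + 0.1) gave a log2 fold change, cytokine over control, beyond 0.5 in either direction and a Benjamini-Hochberg adjusted p (FDR, over all 16525 rows) below 0.05.

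Many mammalian promoters start RNA polymerase in both directions. The RNA made upstream is usually cut short by early termination and removed in the nucleus by the RNA exosome, but some upstream RNAs are spliced and polyadenylated and are annotated as divergent transcripts. A divergent transcript and its partner can therefore draw on the same stretch of regulatory DNA while differing in how long their RNA lasts. In beta cells, inflammatory cytokines switch on interferon and NF-κB target genes and lower many genes of beta-cell identity.

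Both positions were known for 261 pairs in GENCODE release 29, and in all 261 the pair lay on opposite strands. The annotated starts were up to 200 bases apart in 142 pairs and up to 1000 bases apart in 240, with a median distance of 176 bases. In 182 pairs the transcripts ran apart without crossing, and in 79 their first ends crossed. Exons shared bases, on opposite strands, in 73 pairs. The study's methods give stranded sequencing and HTSeq's default parameters, and HTSeq counts by strand unless told otherwise. Whether that setting matched the library kit is not stated in the sources used here, so that counting of a pair's reads on the right strand is assumed.

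The promoters of the partners were rich in G and C, and whether a pair shares its promoter was not tested. Of the 264 partners, 226 had a promoter in RefSeq's table (GRCh38.p14), and the 250 bases before the start had a median of 68.4% G or C and 26 CpG dinucleotides, against 58% and 11 over all 27305 promoters of that table. In these windows 4 short motifs were searched on both strands. The interferon motif ISRE (GAAANNGAAA) was found in 1.33% of partner promoters and 3.07% of all promoters. The TATA box (TATAAA) was found in 5.31% against 11.1%, and CCAAT in 35.4% against 33.0%. The cAMP response element CRE (TGACGTCA) was found in 4.87% against 1.77%. Among the 31 promoters of partners called higher, 2 held ISRE. A match is a match of letters, not a bound site.

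The promoters below are shown because their pairs carry the contrasts of the results. MVP and FAM111A rose with their divergent transcripts, INSIG1 and TARS1 rose while their divergent transcripts fell, and ISL1 fell with its divergent transcript. Each is the 250 bases before the gene's start in RefSeq on GRCh38.p14, 5′ to 3′ along the gene, with motif matches in capitals. The GENCODE starts used for the pair distances differ for some of these genes. The GENCODE start of TARS1 lies before its window, so that this window is inside the GENCODE gene. Those of FAM111A, INSIG1 and ISL1 lie within their windows, which are thus partly inside the gene. MVP lies at chr16:29820144-29820393 on the plus strand, and its capitals mark an ISRE that overlaps a reversed CCAAT by 1 base. FAM111A lies at chr11:59142606-59142855 on the plus strand and held none of the 4 motifs. INSIG1 lies at chr7:155297628-155297877 on the plus strand, with a reversed CCAAT and then a TATA box. TARS1 lies at chr5:33440715-33440964 on the plus strand, with a pair of reversed CCAAT matches. ISL1 lies at chr5:51383198-51383447 on the plus strand, with a pair of CCAAT matches. CRIM1, IRF2 and RIPK2 had no entry.
MVP: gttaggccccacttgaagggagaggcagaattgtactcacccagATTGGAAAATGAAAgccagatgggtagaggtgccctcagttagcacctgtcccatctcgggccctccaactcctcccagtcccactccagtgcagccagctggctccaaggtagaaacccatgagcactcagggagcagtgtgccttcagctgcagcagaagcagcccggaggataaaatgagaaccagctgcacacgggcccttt
FAM111A: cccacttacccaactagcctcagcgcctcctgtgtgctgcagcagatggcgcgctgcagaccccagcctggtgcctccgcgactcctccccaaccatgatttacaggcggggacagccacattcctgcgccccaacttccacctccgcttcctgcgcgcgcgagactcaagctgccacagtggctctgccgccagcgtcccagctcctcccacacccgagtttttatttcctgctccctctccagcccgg
INSIG1: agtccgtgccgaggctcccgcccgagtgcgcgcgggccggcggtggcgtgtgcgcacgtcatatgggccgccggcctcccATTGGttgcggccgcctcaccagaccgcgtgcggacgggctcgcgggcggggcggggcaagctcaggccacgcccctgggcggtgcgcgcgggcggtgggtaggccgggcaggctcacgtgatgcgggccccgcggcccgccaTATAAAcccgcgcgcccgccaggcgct
TARS1: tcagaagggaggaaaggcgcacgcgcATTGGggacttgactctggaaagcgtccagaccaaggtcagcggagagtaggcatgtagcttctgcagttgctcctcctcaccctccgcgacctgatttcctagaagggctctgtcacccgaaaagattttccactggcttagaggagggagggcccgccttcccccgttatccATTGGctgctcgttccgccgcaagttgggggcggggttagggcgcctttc
ISL1: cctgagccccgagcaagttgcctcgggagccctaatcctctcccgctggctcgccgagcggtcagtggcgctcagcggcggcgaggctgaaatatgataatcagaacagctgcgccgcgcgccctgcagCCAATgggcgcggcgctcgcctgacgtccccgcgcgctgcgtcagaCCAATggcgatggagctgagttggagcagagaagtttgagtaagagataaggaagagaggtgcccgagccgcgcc

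Divergent transcripts were low in level. The median was 2.101 CPM in control libraries against 24.3 CPM for the partners. Over all 8 libraries, 80 members had a mean below 1 CPM, 141 lay from 1 to 5 CPM and 46 were at 5 CPM or more. Per kilobase of annotated exon, the divergent transcript was below its partner in control libraries in 206 of 261 pairs, at a median of 26.2% of the partner's level (quartiles 11.3% and 76.8%). All 267 were tested. In 7 members a library had 3 reads or fewer, and in 3 of these a library had 0 reads, which allows up to 3 reads, or 0.0587 to 0.0641 CPM.

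By the depth recovered from the CPM steps the libraries held 46767972 to 51145634 reads, so that 1 read was worth 0.0196 to 0.0214 CPM. The median log2 fold change of all rows was -0.17 on CPM and -0.02 after TMM scaling, and the directions below are read against that shift. All 14 beta-cell markers were listed, 9 of them called lower on CPM, and 6 lower and 1 higher (NKX6-1) after TMM scaling. Of 7 immune cell markers 1 was listed, and its level was 1.07 to 3.26 CPM in control and 1.23 to 1.95 CPM in cytokine libraries. Stromal and endothelial markers were listed for 3 of 8, at a sum of 4.40 to 5.93 CPM in control and 8.28 to 15.9 CPM in cytokine libraries, with VIM called higher. Of 10 exocrine and duct markers 3 were listed, with CPA1 called lower. Their sum was 89.9 to 169 CPM in control and 85.9 to 169 CPM in cytokine libraries. The 6 other islet hormone markers had a sum of 476 to 2201 CPM in control and 564 to 2014 CPM in cytokine libraries. None of these 6 was called by limma (0 at an unadjusted p below 0.05). The part of these marker changes in the results below was not tested.

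More divergent transcripts fell than rose with cytokines. Of the 267, 68 were called (25.5%), of which 63 were lower (23.6%) and 5 were higher (1.87%). Over all rows 27.0% were called, 17.5% lower and 9.52% higher, so that the share called was near the background while the split was more one-sided. With the replicate block, which compares control and cytokine libraries within A, B, C and D, 120 were called (44.9%), 112 lower (41.9%) and 8 higher. With that block 35.4% of all rows and 44.2% of other lncRNAs were called, 23.8% and 35.9% lower. Leaving out the control library D gave 42 calls and leaving out the cytokine library A gave 44. All 68 called members moved the same way in each of the 4 library pairs. For the 59 lower and 4 higher members whose groups did not overlap, this was bound to be so. In bulk libraries less RNA per cell and fewer cells of a kind cannot be told apart.

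The size of the fall was similar in other lncRNAs. The median log2 fold change of divergent transcripts was -0.49 on CPM, or -0.32 relative to the median of all rows, with 225 of 267 below 0. For other lncRNAs the median was -0.41, and 28.5% were called, 22.7% lower and 5.81% higher. For protein-coding genes it was -0.12, and 27.2% were called, 16.8% lower and 10.4% higher. After TMM scaling the medians were -0.34, -0.27 and 0.03, and 40 divergent transcripts were called lower (15.0%) and 7 higher (2.62%), beside 11.7% and 13.0% of all rows and 24.7% of all rows in either direction. Other lncRNAs were then called lower in 16.1% and higher in 6.64%. The share also differed with level. At 1 to 5 CPM, 21.99% of divergent transcripts, 27.1% of other lncRNAs and 24.5% of all rows were called lower. At 5 to 20 CPM it was 35% of divergent transcripts, 34.1% of other lncRNAs and 20.7% of all rows.

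**Figure D1:**
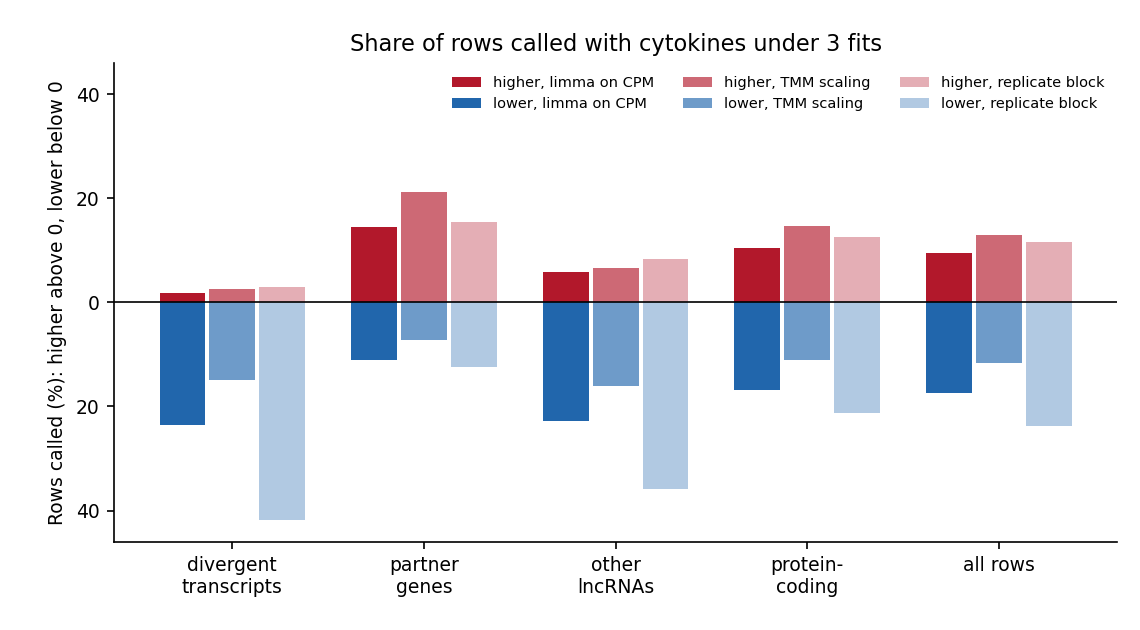
The bars give the percent of rows called higher (above 0) and lower (below 0) with cytokines, for 5 sets of rows and 3 limma fits (on CPM, with TMM scaling, and with the replicate block). Divergent transcripts were called lower in 23.6% and higher in 1.87% on CPM, whereas partner genes were called lower in 11.0% and higher in 14.4%.

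The partners did not share this fall. Of 264 partners 67 were called (25.4%), 38 higher and 29 lower, and 56 higher (21.2%) and 19 lower (7.20%) after TMM scaling. Their median log2 fold change was -0.00 on CPM and 0.15 with TMM, and 131 of 264 were above 0. The median level went from 24.3 to 26.8 CPM in the partners and from 2.101 to 1.435 CPM in the divergent transcripts. Fold changes within a pair had the same sign in 151 of 264 pairs. Across pairs Pearson's r was 0.47 and Spearman's rho 0.32, given as a description since the pairs share libraries and depth. Without the RIPK2 pair, the farthest point, r was 0.37 and rho 0.31 (left out after seeing the data).

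In 22 pairs both RNAs were called. Both rose in 5 pairs, both fell in 12, and in the other 5 the divergent transcript fell while the partner rose. The reverse, a divergent transcript called higher beside a partner called lower, was seen in 0 pairs with limma, edgeR (with and without the block) and DESeq2, and in 0 pairs at an unadjusted limma p below 0.05 for both. By limma only 5 divergent transcripts were called higher and 29 partners lower, so that few such pairs could arise. Of 478 head-to-head pairs of another lncRNA and a protein-coding gene, 31 had both called. In these 8 rose together, 21 fell together, and in 2 the lncRNA fell while the gene rose. Of 1076 head-to-head pairs of protein-coding genes, 51 had both called, 40 of them in the same direction. With the replicate block in limma 36 pairs had both called, with 5 pairs up, 21 down and 10 opposed.

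**Figure D2:**
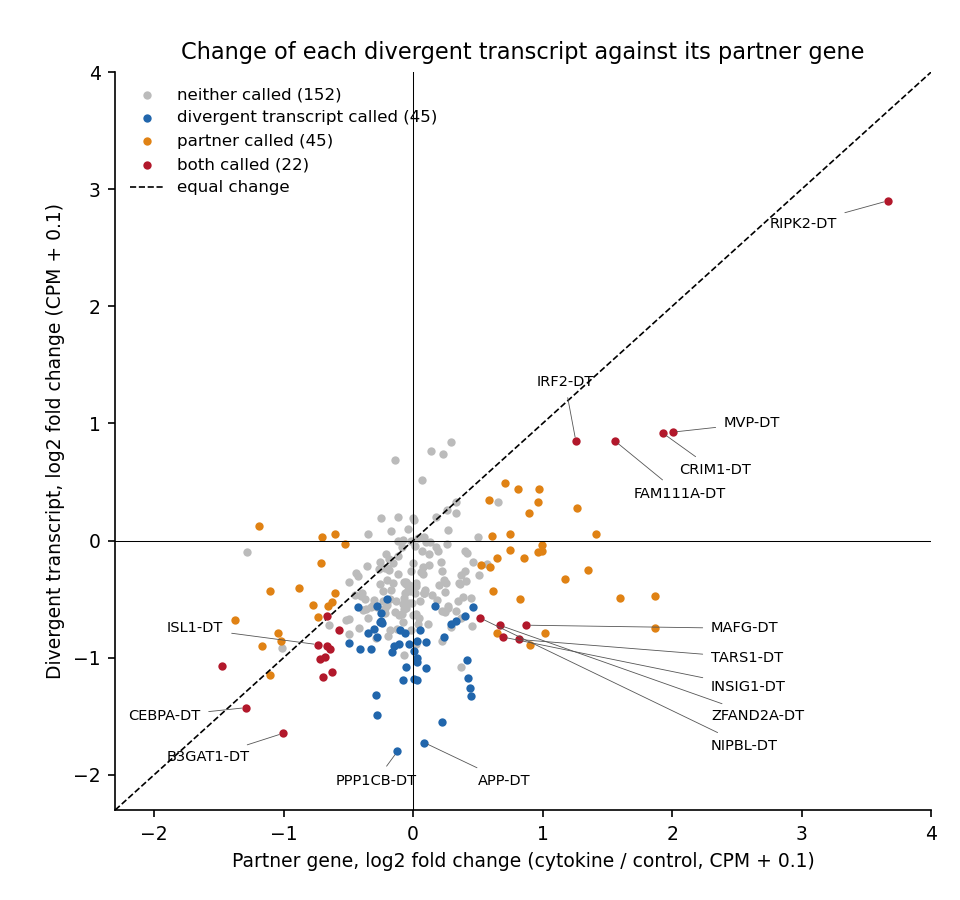
Each point is one of 264 pairs, with the log2 fold change of the partner gene on the x axis and that of the divergent transcript on the y axis (cytokine over control, on log2(CPM + 0.1)). The dashed line marks equal change, and 219 points lie below it. Colours show which RNA of the pair was called.

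RIPK2-DT rose most. RIPK2 is a kinase that passes signals from the NOD receptors to NF-κB. RIPK2-DT stood at 2.20, 2.12, 1.39 and 2.35 CPM in the control libraries A to D and at 18.5, 16.2, 8.92 and 21.1 CPM in the cytokine libraries A to D. RIPK2 itself went from 2.12, 1.08, 1.99 and 1.72 CPM to 22.6, 19.1, 21.1 and 27.7 CPM. Neither RNA overlapped between groups, and the log2 fold changes were 2.90 ± 0.27 (SE, n = 4 per group, limma FDR 2.2e-05) for RIPK2-DT and 3.66 ± 0.22 (limma FDR 6.4e-07) for RIPK2. Their starts lay 20 bases apart. The ratio of the pair overlapped between groups (exact permutation test, 2-sided, p = 0.114).

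In the other rising pairs the divergent transcript had the smaller log2 fold change, with a ratio that separated the groups only for MVP and CRIM1. IRF2 is an interferon regulatory factor, and IRF2-DT went from 2.74, 4.00, 3.30 and 3.46 CPM to 7.90, 8.39, 4.41 and 4.72 CPM. The cytokine libraries A and B were therefore higher for IRF2-DT than C and D, while all 4 lay above every control library. Its log2 fold change was 0.85 ± 0.24 (limma FDR 0.0226), beside 1.26 ± 0.16 for IRF2. The difference within the pair was 0.04 in libraries A and B and -0.86 in C and D. The call of IRF2-DT was lost without the control library A (limma FDR 0.0534), the cytokine library A (0.0706) or the cytokine library B (0.0677).

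MVP encodes the major vault protein, and MVP-DT went from 2.42, 1.69, 1.33 and 1.60 CPM to 3.66, 3.84, 2.52 and 3.60 CPM. The groups did not overlap, although the highest control and the lowest cytokine library were close. The log2 fold change was 0.93 ± 0.23 (limma FDR 0.0123) for MVP-DT and 2.00 ± 0.14 for MVP, from 25.8 to 104 CPM. The start of MVP-DT lay 858 bases inside MVP on the other strand, with no shared exon base.

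CRIM1 encodes a membrane protein that binds bone morphogenetic proteins, and CRIM1-DT went from 4.47, 4.72, 8.18 and 5.96 CPM to 9.62, 10.3, 12.5 and 11.1 CPM. The library C was the highest in both groups. The log2 fold change was 0.92 ± 0.20 (limma FDR 0.00613), against 1.93 ± 0.15 for CRIM1. FAM111A is a protease that acts at replication forks and restricts viruses, and FAM111A-DT went from 1.005, 1.25, 1.77 and 2.44 CPM to 3.11, 2.33, 2.54 and 3.56 CPM. Here the groups overlapped by a single control library, D. Its log2 fold change was 0.85 ± 0.28 (limma FDR 0.0409), beside 1.56 ± 0.28 for FAM111A, and the call was lost without the control library A, B or C or the cytokine library A, C or D (FDR 0.0516 to 0.108). The ratio to the partner fell without overlap for MVP-DT and CRIM1-DT (exact permutation test, 2-sided, p = 0.0286 each, the smallest that 4 against 4 can give) and overlapped for IRF2-DT and FAM111A-DT.

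In 5 pairs the divergent transcript fell and the partner rose. INSIG1 holds the sterol sensor SCAP in the endoplasmic reticulum. INSIG1-DT fell from 5.84, 5.23, 7.82 and 6.28 CPM in control to 3.09, 3.69, 3.36 and 3.80 CPM in cytokine libraries, while INSIG1 rose from 109, 113, 171 and 115 CPM to 197, 185, 256 and 176 CPM. Neither RNA overlapped between groups. The log2 fold changes were -0.82 ± 0.18 (limma FDR 0.00544) and 0.69 ± 0.17 (limma FDR 0.0117), and the difference within the pair was -1.51. INSIG1-DT stood at 11.1% of INSIG1 per kilobase in control.

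MAFG is a small Maf protein that pairs with NRF2 at antioxidant genes. MAFG-DT fell from 12.02, 13.6, 18.3 and 13.9 CPM to 9.18, 8.59, 9.52 and 7.33 CPM, and MAFG rose from 52.3, 52.1, 59.2 and 54.3 CPM to 89.0, 91.0, 131 and 93.5 CPM. Every cytokine library lay below every control library for MAFG-DT and above it for MAFG. The log2 fold changes were -0.72 ± 0.16 (limma FDR 0.00711) and 0.87 ± 0.14 (limma FDR 8.8e-04).

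TARS1 is the cytosolic threonyl-tRNA synthetase. TARS1-DT fell from 5.35, 4.19, 4.24 and 4.03 CPM to 2.73, 2.76, 1.97 and 2.31 CPM, and TARS1 rose from 115, 136, 191 and 140 CPM to 245, 237, 273 and 251 CPM. The groups stood apart for both RNAs. The log2 fold changes were -0.84 ± 0.19 (limma FDR 0.00677) and 0.81 ± 0.15 (limma FDR 0.00247), and the difference within the pair was -1.66.

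NIPBL loads cohesin onto chromatin, and NIPBL-DT was among the most abundant members. NIPBL-DT fell from 38.6, 39.1, 54.5 and 51.0 CPM to 26.9, 25.4, 28.3 and 34.5 CPM, and NIPBL rose from 67.0, 83.2, 107.2 and 106 CPM to 122, 115, 128 and 147 CPM. The libraries did not overlap for either RNA, although C and D were above A and B in the controls of both. The log2 fold change was -0.66 ± 0.15 (limma FDR 0.00821) for NIPBL-DT and 0.52 ± 0.16 (limma FDR 0.0326) for NIPBL. With median-of-ratios scaling and with DESeq2 NIPBL-DT kept its FDR below 0.05 and dropped under the fold minimum. The call of NIPBL was lost without the control library A or B, or the cytokine library A, C or D (FDR 0.0576 to 0.0879), and without the intensity trend (0.0558).

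ZFAND2A is a stress-induced zinc finger protein that binds the proteasome. ZFAND2A-DT fell from 6.82, 7.09, 5.30 and 5.59 CPM to 3.96, 4.98, 2.21 and 4.22 CPM, and ZFAND2A rose from 5.30, 5.06, 6.99 and 5.32 CPM to 7.73, 7.84, 11.96 and 9.02 CPM. Both RNAs separated the groups. The log2 fold changes were -0.72 ± 0.25 (limma FDR 0.0455) for ZFAND2A-DT and 0.67 ± 0.19 (limma FDR 0.0196) for ZFAND2A. ZFAND2A-DT was not called after TMM scaling (FDR 0.131) nor in 7 of 8 fits that left out a library, controls A to D and cytokine A, C and D, and ZFAND2A was not called without the control library B (FDR 0.0552). The exons of this pair share 111 bases. After TMM scaling 6 pairs were opposed, 4 of them these.

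**Figure D3:**
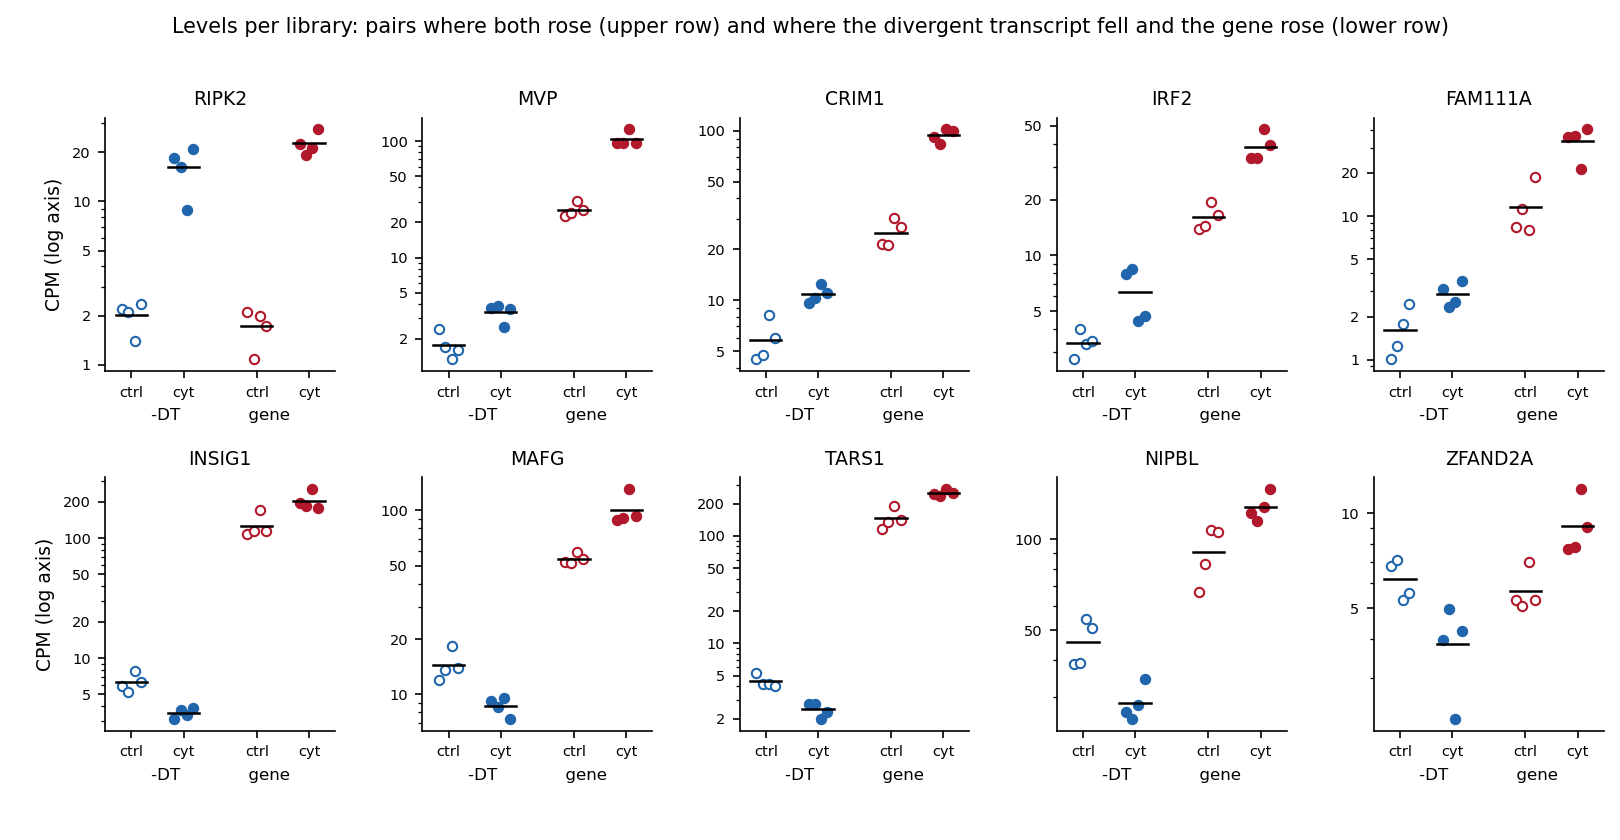
CPM on a log axis in each of the 8 libraries for 10 pairs, with open points for control (ctrl), filled points for cytokine (cyt) and bars for the mean, the divergent transcript (-DT) in blue and its partner gene in red. In the upper row both RNAs rose, as RIPK2-DT from 2.01 to 16.2 CPM and RIPK2 from 1.73 to 22.6 CPM, and in the lower row the divergent transcript fell while the gene rose.

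The largest falls were mostly beside partners that were not called, as 197 of all 264 partners were not. Of the 62 divergent transcripts with a listed partner that were called lower, 45 lay beside such a partner. The study kept genes over 0.5 CPM in at least 4 samples. Of the 8 libraries, APP-DT, IL10RB-DT, ING2-DT and CEBPA-DT were over that level in the 4 control libraries alone. The listing of these 4 thus leans on the group in which they were high, and the part of the filter in such falls was not tested. Below a mean of 1 CPM, 15 members were called lower (18.75%) and 0 higher, against 12.8% and 8.74% of all rows. PPP1CB-DT, next to a catalytic subunit of protein phosphatase 1, went from 2.82, 1.82, 2.61 and 2.50 CPM to 0.468, 0.790, 0.463 and 0.844 CPM. The cytokine libraries were all below the controls, with a log2 fold change of -1.80 ± 0.27 (limma FDR 5.5e-04), whereas PPP1CB gave -0.12 ± 0.25. The annotated starts of this pair lay 15435 bases apart.

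APP-DT lies next to the gene of the amyloid precursor protein, the partner of highest level at 1164 CPM in control. APP-DT stood at 1.48, 1.61, 1.39 and 1.31 CPM in control and at 0.405, 0.406, 0.322 and 0.342 CPM in cytokine libraries. The groups lay far apart relative to their spread, with a log2 fold change of -1.72 ± 0.23 (limma FDR 2.6e-04), and APP gave 0.08 ± 0.19. Per kilobase APP-DT stood at 0.384% of APP in control.

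CAMTA1-DT fell by 1.55 ± 0.26 on the log2 scale (1.48 to 0.448 CPM, limma FDR 0.00136) and TMCC1-DT by 1.49 ± 0.28 (3.19 to 1.14 CPM, limma FDR 0.00259), while CAMTA1, a calcium-responsive transcription activator, gave 0.23 and TMCC1, an endoplasmic reticulum membrane protein, gave -0.28. ZCCHC14-DT fell by 1.26 ± 0.32 (1.19 to 0.428 CPM, limma FDR 0.0119) beside 0.44 for ZCCHC14, a zinc knuckle protein. ZCCHC14 was called higher after TMM scaling (0.59, limma FDR 0.0257), with median-of-ratios scaling, edgeR and DESeq2, so that this pair was opposed in those fits. BOLA3-DT fell from 6.83 to 2.91 CPM (-1.19 ± 0.19, limma FDR 7.96e-04), and BOLA3, which helps to place iron-sulphur clusters on mitochondrial proteins, gave 0.03. IL10RB-DT fell from 0.747 to 0.248 CPM (-1.32 ± 0.29, limma FDR 0.00591), with 7 to 42 reads per library. IL10RB, a receptor chain shared by interleukin-10 and interferon-λ, gave 0.45 ± 0.41 at 1.78 to 2.41 CPM. ING2-DT had 1 to 47 reads per library, and its log2 fold change of -1.31 ± 0.45 (limma FDR 0.0485) was not called after TMM scaling (FDR 0.0717) and in 7 of 8 fits without a library, all but the cytokine library D.

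In 12 pairs both RNAs fell, and 3 of them were among the largest falls or the most abundant members. B3GAT1 makes the HNK-1 sugar epitope, and B3GAT1-DT went from 33.9, 31.0, 20.3 and 31.7 CPM to 10.6, 11.5, 5.01 and 11.3 CPM. The library C was the lowest in both groups, and all cytokine libraries lay below all controls. The log2 fold change was -1.65 ± 0.27 (limma FDR 0.00104), beyond that of B3GAT1 (-1.003 ± 0.15, limma FDR 5.5e-04), with no overlap of the ratio, and their starts lay 24555 bases apart. CEBPA is a transcription factor of differentiation, and CEBPA-DT fell from 0.931 to 0.277 CPM (-1.43 ± 0.34, limma FDR 0.00884) beside CEBPA from 26.4 to 10.6 CPM (-1.29 ± 0.17, limma FDR 2.8e-04).

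ISL1 is a transcription factor of islet cells. ISL1-DT went from 47.1, 54.9, 43.1 and 54.1 CPM to 27.9, 32.0, 19.6 and 29.2 CPM, and ISL1 from 145, 143, 256 and 204 CPM to 93.8, 91.0, 132 and 125 CPM. In the control group the library C was lowest for ISL1-DT and highest for ISL1. The log2 fold changes were -0.89 ± 0.16 (limma FDR 0.0021) and -0.73 ± 0.21 (limma FDR 0.0203), and the ratio overlapped between groups for ISL1 and CEBPA (exact permutation test, 2-sided, p = 0.657 and 0.629). ISL1 was not called without the control library D or the cytokine library A or B (FDR 0.0557 to 0.0589).

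The other 9 pairs in which both fell were those of MOCS2, B4GAT1, GTSE1, CKAP2, GATD1, MIF4GD, TWF2, FLVCR1 and YPEL3, named after their values were seen. Their divergent transcripts had log2 fold changes from -1.16 to -0.64. GTSE1 and CKAP2 act on the spindle of dividing cells. GTSE1-DT went from 0.813, 1.02, 0.756 and 1.08 CPM to 0.192, 0.491, 0.624 and 0.321 CPM, and CKAP2-DT from 0.770, 0.995, 1.45 and 1.78 CPM to 0.490, 0.619, 0.423 and 0.663 CPM. All cytokine libraries lay below all control libraries for both. MOCS2 is an enzyme of molybdenum cofactor synthesis, and MOCS2-DT fell from 2.32 to 0.970 CPM (-1.16).

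Over all 63 members called lower the log2 fold changes ran from -1.80 to -0.50, and the control levels from 0.622 to 50.7 CPM, and 40 of the 63 were also called lower after TMM scaling. The 199 members not called had log2 fold changes from -1.15 to 0.84.

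Among the most abundant members, BAIAP2-DT fell beside an actin regulator whose RNA did not pass the test. It went from 46.7, 46.2, 62.1 and 47.7 CPM to 23.9, 24.5, 29.3 and 27.4 CPM (-0.94 ± 0.13, limma FDR 4.3e-04), while BAIAP2 stood at 63.3 and 63.7 CPM (0.01 ± 0.11). DNAJC3-DT and GARS1-DT did not pass the test, and the sign of both turned after TMM scaling (0.06 and 0.01). DNAJC3 is an endoplasmic reticulum co-chaperone, and DNAJC3-DT gave -0.09 ± 0.25 (37.9 to 34.3 CPM) beside 0.40 ± 0.23 for DNAJC3. GARS1 is the glycyl-tRNA synthetase, and GARS1-DT gave -0.15 ± 0.26 (34.1 to 31.5 CPM) while GARS1 rose from 69.0 to 108 CPM (0.64 ± 0.11, limma FDR 0.00141). FAM151B-DT, without a listed partner, fell from 4.02 to 1.85 CPM (-1.06 ± 0.26, limma FDR 0.0109).

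The ratio of each pair was then tested directly. The change of the divergent transcript lay below that of its partner in 219 of 264 pairs (83.0%), with a median difference of -0.45 on the log2 scale. In 70 pairs (26.5%) the log2 ratio did not overlap between the 4 control and 4 cytokine libraries (exact permutation test, 2-sided, p = 0.0286 each, unadjusted). The divergent transcript lost ground in 68 of them and gained in 2. All 70 kept their sign within libraries A and B and within C and D, as ratios that do not overlap must. With the replicate block, 142 of 264 ratios moved the same way in all 4 library pairs, which is a looser condition. No such count is given here for other head-to-head pairs, so the 142 is not read as a trait of divergent transcripts.

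Other neighbouring genes gave the background for these counts. Among 1076 pairs of protein-coding genes lying head to head with starts up to 1000 bases apart, 26.1% had a separated ratio, evenly split (145 and 136), and 618 had the same sign, with r at 0.34. Among 478 head-to-head pairs of a protein-coding gene and another lncRNA, 28.0% were separated, the lncRNA losing ground in 120 and gaining in 14, and its change was the lower in 383. The share of separated ratios was thus near that of both backgrounds, and most separated ratios fell for both kinds of lncRNA, 68 of 70 and 120 of 134, a difference that was not tested.

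**Figure D4:**
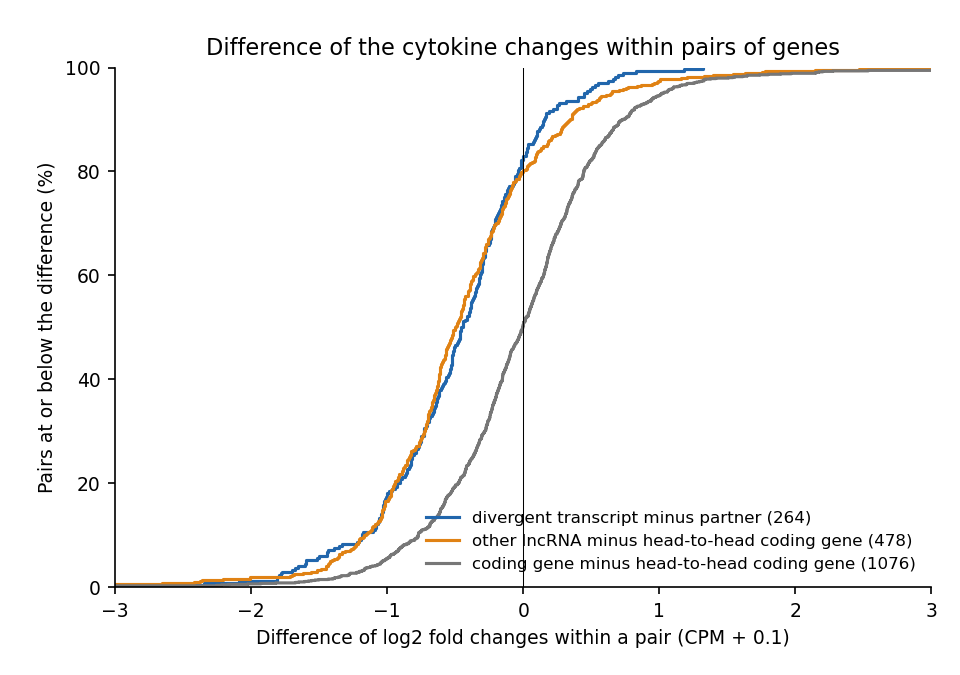
Cumulative percent of pairs against the difference of log2 fold changes within a pair, for 264 divergent transcripts minus their partners, 478 other lncRNAs minus the coding gene head to head with them, and 1076 pairs of coding genes. The curve of the divergent transcripts has its median at -0.45, beside -0.50 for the other lncRNAs and -0.00 for the coding genes.

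In 4 of the 5 widest negative differences the gene rose, and in the other, that of APP described above, the gene was not called. ADAMTS16, a secreted metalloprotease, rose from 1.38 to 4.43 CPM (1.87 ± 0.46, limma FDR 0.0114), while ADAMTS16-DT gave -0.75 ± 0.43 (1.81 to 1.11 CPM), a difference of -2.61. In the control library A ADAMTS16 stood at 0.278 CPM (13 reads), with 1.80, 1.51 and 1.92 CPM in B to D. The log2 change of ADAMTS16 was 3.72 in the library pair A and 1.01, 1.53 and 1.22 in B to D. ZC3H12A, a ribonuclease that limits inflammatory mRNAs, rose from 8.07 to 26.7 CPM (1.87 ± 0.32, limma FDR 0.00126), and ZC3H12A-DT gave -0.47 ± 0.20 (2.48 to 1.75 CPM). The control level of ZC3H12A was 11.2 and 12.1 CPM in A and B but 4.26 and 4.71 CPM in C and D. Its log2 fold change was 1.24 within A and B and 2.50 within C and D. RAB30, a Golgi GTPase, rose from 7.67 to 22.9 CPM (1.60 ± 0.18, limma FDR 9.7e-05), and RAB30-DT gave -0.49 ± 0.19 (6.09 to 4.31 CPM). ANKHD1 rose from 1.76 to 3.49 CPM (1.02 ± 0.30, limma FDR 0.0262) beside -0.79 ± 0.28 for ANKHD1-DT. ANKHD1 shares exons with a readthrough gene that could take its reads, so its level is uncertain, and its call was lost without the control library A or C or the cytokine library A, B or D. ADAMTS16-DT and ANKHD1-DT were called lower with the replicate block (limma FDR 0.00987 and 0.00292).

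The 2 positive differences were smaller. DPH5-DT stayed at 1.21 CPM in both groups (0.03 ± 0.23) while DPH5, a methyltransferase of diphthamide synthesis, fell from 12.2 to 7.41 CPM (-0.71 ± 0.16, limma FDR 0.00732). RPAP3-DT went from 0.257, 0.402, 0.438 and 0.469 CPM to 0.809, 0.705, 0.785 and 0.603 CPM, and the groups did not overlap. Its log2 fold change of 0.76 ± 0.27 missed the threshold on CPM (limma FDR 0.0505) and passed it after TMM scaling (limma FDR 0.0233) and with the replicate block (0.0326). RPAP3, which helps to assemble RNA polymerase II, gave 0.14 ± 0.20. RPAP3-DT was over the study's minimum of 0.5 CPM in every cytokine library and in no control library. The listing of RPAP3-DT thus leans on the group in which it was high. The part of the filter in its rise and in its separated ratio was not tested.

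Grouping the pairs by the partner's call showed where divergent transcripts followed. Beside the 38 partners called higher, the median log2 fold change was -0.12 for the divergent transcripts and 0.90 for the partners. Of these 38 divergent transcripts 5 rose, 5 fell and 28 were not called. Beside the 29 partners called lower, 12 divergent transcripts fell and none of the other 17 was called, at medians of -0.76 and -0.72. Beside the 197 partners not called, 45 divergent transcripts fell and 0 rose by limma (1 at an unadjusted p below 0.05), at a median of -0.50.

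Partners were also grouped by symbol prefixes, which gave small groups and missed members of a role whose symbol has another start (CEBPA, ISL1 and CAMTA1 among transcription factors, GTSE1 and CKAP2 in cell division). Their counts are to be read against the 23.6% of all divergent transcripts called lower and 1.87% higher, and no group was tested against the others. Of 6 pairs with an immune or cell death prefix, IRF2-DT rose and IL10RB-DT fell, and the partners IRF2, RELA and CD2AP rose. RELA is the p65 subunit of NF-κB, and RELA-DT gave -0.21 (2.38 to 2.12 CPM) beside 0.52 for RELA. Of 21 pairs with a partner under a zinc finger or other transcription factor prefix (IRF2 being under the immune prefixes) 3 divergent transcripts fell and 0 rose by limma (0 also at an unadjusted p below 0.05). Of 20 with an RNA or translation prefix 4 fell, and 3 partners rose, TARS1, GARS1 and EIF2AK3, the last being the stress kinase PERK. EIF2AK3-DT gave -0.09 (3.18 to 2.95 CPM) beside 0.997 for EIF2AK3.

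Of 11 pairs with a mitochondrial prefix 3 divergent transcripts fell, BOLA3-DT, MFF-DT and NDUFA6-DT, and none of their partners was called. Of 16 with a traffic or transport prefix 2 divergent transcripts fell while 5 partners rose, and in 14 the divergent transcript's change lay below the partner's. Of 13 with a ubiquitin or proteasome prefix 1 fell, and of 9 with a cell cycle or genome maintenance prefix 2 fell and FAM111A-DT rose. The remaining 168 pairs were in none of these lists, with 46 divergent transcripts lower and 3 higher. RELA, CD2AP, EIF2AK3, MFF-DT and NDUFA6-DT are named here after their values were seen, because the counts that hold them are small.

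Falls were seen at each distance between the starts. With starts up to 200 bases apart 34 of 142 divergent transcripts were called lower and 1 higher, and beyond that up to 1000 bases 24 of 98 were lower and 4 higher. Over 1000 bases 3 of 21 were lower. The divergent transcript's log2 fold change was the lower of the pair in 86.6%, 78.6% and 81.0% of these pairs. In pairs without shared exon bases 49 of the 50 separated ratios fell, and in those with shared bases 17 of 18.

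Of a list of genes linked to nuclear RNA decay and transcription termination, 51 of 51 were listed. CPSF1, CPSF4, EXOSC5 and INTS5 were called lower, or 7.84% against 17.5% of all rows, and none was called higher by limma (10 lower and 1 higher at an unadjusted p below 0.05), with a median log2 fold change of -0.13 for the list beside -0.17 for all rows. CPSF1 and CPSF4 belong to the cleavage and polyadenylation complex, EXOSC5 is a subunit of the RNA exosome, and INTS5 one of Integrator. EXOSC5 went from 4.02 to 2.22 CPM (-0.79 ± 0.23, limma FDR 0.024), CPSF1 from 147 to 95.4 CPM (-0.62 ± 0.15, limma FDR 0.00965), INTS5 from 22.6 to 14.9 CPM (-0.60 ± 0.16, limma FDR 0.0147) and CPSF4 from 59.1 to 41.1 CPM (-0.52 ± 0.13, limma FDR 0.0129). After TMM scaling limma called 0 of the 51 lower (4 at an unadjusted p below 0.05) and 1 higher, with a median of 0.02, and edgeR called 1 lower. EXOSC5 was not called without the control library B or C or the cytokine library A or D (FDR 0.0589 to 0.074).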

How the data were processed

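The mRNA libraries from EndoC-βH5 cells (4 control, 4 cytokine) were sequenced as 100-base paired reads. Per the study's methods, the authors aligned reads with TopHat2 2.1.1 to GRCh38, counted them per gene of Ensembl release 107 with HTSeq 0.9.1 at its default parameters, and kept genes over 0.5 CPM in at least 4 samples. The deposited values are CPM per library total, not divided by length. All values were whole multiples of 1 read within 0.01 reads (100% in each library), giving totals of 46767972 to 51145634 reads, of which 20.1% to 26.6% fell outside the listed genes. Another 4 columns, which match no sample here, were not used.

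Groups came from the labels. limma 3.58.1 (intensity trend) was fitted to log2(CPM + 0.1) over all 16525 rows, with Benjamini-Hochberg adjustment over all of them and the study's thresholds. Pair ratios were compared with 2-sided exact permutation tests. Alternatives were TMM (edgeR 4.0.16) and median-of-ratios (DESeq2 1.42.0) scaling, pseudocounts of 0.5 and 1, a minimum mean of 1 CPM, no trend, edgeR's quasi-likelihood test and DESeq2 on recovered reads, leaving out each library, and a replicate block. On recovered reads edgeR called 4067 of 16525 rows. Column names carry no replicate numbers, so blocks A to D follow their shared first part. Deviations from the group means correlated within each pair over 14683 genes (r = 0.57, 0.59, 0.80 and 0.74), though A and B could not be told apart (0.57 and 0.59 crosswise). The labels do not say what the shared part marks, nor that libraries came from separate cultures, so p-values measure the spread between these samples. Positions and exon lengths are from GENCODE 29 (16167 rows matched) and promoters from RefSeq (GRCh38.p14). limma, edgeR and DESeq2 were tested on simulated data.

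Members and lists were chosen with earlier results of these data known. Named are the 10 largest rises and falls among called divergent transcripts with their partners, pairs called in opposite directions, the 5 most abundant members, the 5 largest differences each way among separated ratios, called members of the RNA decay list and called members without a partner. With 5 rises called, all 5 are named. Intervals of 0 to 3 reads cover counting error alone.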

Additional observations from a re-analysis of the deposited data

Results flagged for a closer look

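Over the named divergent transcripts and partner genes, 130 groups of 4 libraries were tested for a library far from the other 3 by Dixon's test at 95%, and 7 stood out. Chance flags about 1 in 20 such groups, so 7 of 130 is near what chance gives. In 6 of the 7 the library was C. Among cytokine libraries, C was lowest for B3GAT1-DT at 5.01 CPM, with the others at 10.6 to 11.5 CPM. Among control libraries, C was highest for BAIAP2-DT at 62.1 CPM against 46.2 to 47.7 CPM, for INSIG1 at 171 CPM against 109 to 115 CPM, and for ZFAND2A at 6.99 CPM against 5.06 to 5.32 CPM. Among cytokine libraries, C was highest for MAFG at 131 CPM against 89.0 to 93.5 CPM and for MVP at 127 CPM against 95.4 to 97.1 CPM. For TARS1-DT the control library A was highest at 5.35 CPM, with the others at 4.03 to 4.24 CPM. None of these 7 RNAs changed direction without that library, which was bound to be so because the groups of each did not overlap.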

How the results depend on the processing

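No RNA named and called changed direction under any alternative run. Of the named RNAs not called, 8 changed sign in 1 to 8 settings, DNAJC3-DT, GARS1-DT and PPP1CB with TMM or median-of-ratios scaling, edgeR and DESeq2 among them, and APP, BAIAP2, BOLA3, DPH5-DT and RPAP3 when a library was left out. The count of divergent transcripts called was 68, and 42 to 67 when a library was left out (42 without the control library D, 44 without the cytokine library A), 46 to 83 under the other alternatives without a block, and 120 with the replicate block in limma. The replicate block in edgeR, added after seeing the data, gave 81. Partner calls stayed between 53 and 83 against 67. Separated pair ratios were 70, 76 to 89 when a library was left out (where 3 against 4 libraries separate more easily), and 142 with the replicate block, which asks for the same direction in 4 of 4 library pairs and is a looser condition. Pairs with the same sign were 151, and 134 to 162 over the scalings, pseudocounts and left-out libraries. Of 65 named RNAs, 45 kept their side of the threshold under all alternatives, and the rest are given beside their values or changed in 1 to 7 settings. Low read numbers limit the 80 members below 1 CPM.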
